A study of Homo sapiens with 6 samples.

Results

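The genes described here encode the integrins, the laminins and the basement membrane proteins that join laminins to their neighbours. They were chosen by symbol, with earlier results of these data known but no measured value in the rule, as every integrin alpha (ITGA) and beta (ITGB) subunit, every laminin chain (LAMA, LAMB, LAMC), the nidogens NID1 and NID2, AGRN (agrin) and HSPG2 (perlecan). This gave 42 of the 57133 symbols in the count table, made up of 18 integrin alpha subunits, 8 integrin beta subunits, 12 laminin chains and 4 linkers.

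RNA was sequenced from T98G, an established human glioblastoma line whose CBX8 gene was disrupted by CRISPR. CBX8 is a chromodomain subunit of Polycomb repressive complex 1, a chromatin complex known for holding developmental genes silent. The knockout cells carried a doxycycline-inducible lentiviral vector that was either empty (CBX8 KO, 3 libraries) or held V5-tagged WT CBX8 (WT CBX8 re-expression, 3 libraries). The comparison between them asks which transcripts differ when CBX8 is expressed from the vector. Both kinds of cell had the CBX8 knockout and the rtTA transactivator, went through puromycin and hygromycin selection, and are labelled as treated with doxycycline at 1 ug/ml for 72 h. The genotype label of the re-expression libraries reads wild type, whereas their titles and the study's methods describe CBX8 put back into the knockout. No unedited T98G library is among the samples analysed here. Whether the knockout is a single clone is not stated in the sources used here. The vector and the stable line carrying it go together, so CBX8 and any other difference between the stable lines cannot be told apart.

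Total counts lay between 7950190 and 8659796 per library. CBX8 itself had 96, 104 and 83 counts in CBX8 KO and 30372, 31408 and 27791 upon re-expression. This was a log2 fold change of 8.22 (SE 0.08, edgeR's quasi-likelihood test, Benjamini-Hochberg adjusted p = 1e-30), in the direction of the labels. Without an unedited library, the level upon re-expression cannot be set against that of the intact gene. Of the glial and mesenchymal markers, VIM and CD44 were abundant (means of 2730 and 2895 CPM, counts scaled to a common library size with TMM factors, in CBX8 KO, 2820 and 2506 upon re-expression, where CD44 fell by 0.21 on the log2 scale, edgeR's adjusted p = 0.00967), GFAP and OLIG2 had at most 30 and 38 counts, NES at most 4, and SOX2 and S100B were at 0 in every library. The endothelial, platelet and epithelial markers had at most 4 counts in any library.

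Integrins are cell surface receptors built from an alpha and a beta subunit, and the pair decides which matrix protein the cell can hold. Laminins are trimers of an alpha, a beta and a gamma chain that polymerise into the sheet of the basement membrane. Nidogens tie that sheet to type IV collagen, and agrin and perlecan are large heparan sulfate proteoglycans bound to it. Glioblastoma cells are known to migrate along the basement membrane of blood vessels, where laminin and fibronectin receptors provide grip.

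Of the 42 genes, 30 had enough counts to be tested. Upon WT CBX8 re-expression, 9 of the 30 rose and 5 fell (edgeR's quasi-likelihood test, adjusted over 14461 genes, adjusted p under 0.05), which is 46.7% of those tested. Over all genes tested, 6.23% rose and 6.63% fell, 12.9% in all. The median CPM in CBX8 KO was 45.1 for the 30 genes and 23.1 for all genes tested, and the shares were not matched for level. Among the 27 genes that passed the count filter in all 6 libraries, 8 rose and 5 fell. ITGB2 is not among these 27, since it passed the filter only through the libraries in which it was higher. Leaving out 1 library gave 3 to 6 lower and 6 to 7 higher, with 3 lower without WT CBX8 re-expression replicate 1 or 2 and 6 higher without CBX8 KO replicate 3, and DESeq2 gave 3 lower and 7 higher. The fibronectin receptor subunit ITGA5, the laminin receptor subunit ITGA3, the laminin chains LAMA3, LAMB2 and LAMB3 and the proteoglycans AGRN and HSPG2 rose, together with ITGB1 and ITGB2. The laminin chain LAMB1, the nidogen NID2 and the integrin subunits ITGB3, ITGA1 and ITGA4 fell. The changes were small, and 4 of the 14 exceeded 1.5-fold in either direction (ITGA5, ITGB2, ITGB3 and LAMA3). With library sizes left unscaled, the split was 11 higher and 3 lower. Together the 42 genes took between 0.338% and 0.347% of all counts in CBX8 KO and between 0.380% and 0.387% upon re-expression. The 3 libraries of one condition lay apart from the 3 of the other for 18 of the 30 genes (11 higher and 7 lower), against 28.9% of all genes tested in either direction. The median log2 fold change was 0.09 over the 30 genes and 0.0049 over all genes tested. RNA from fewer cells of a kind and less RNA per cell cannot be told apart in these bulk libraries.

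**Figure D1:**
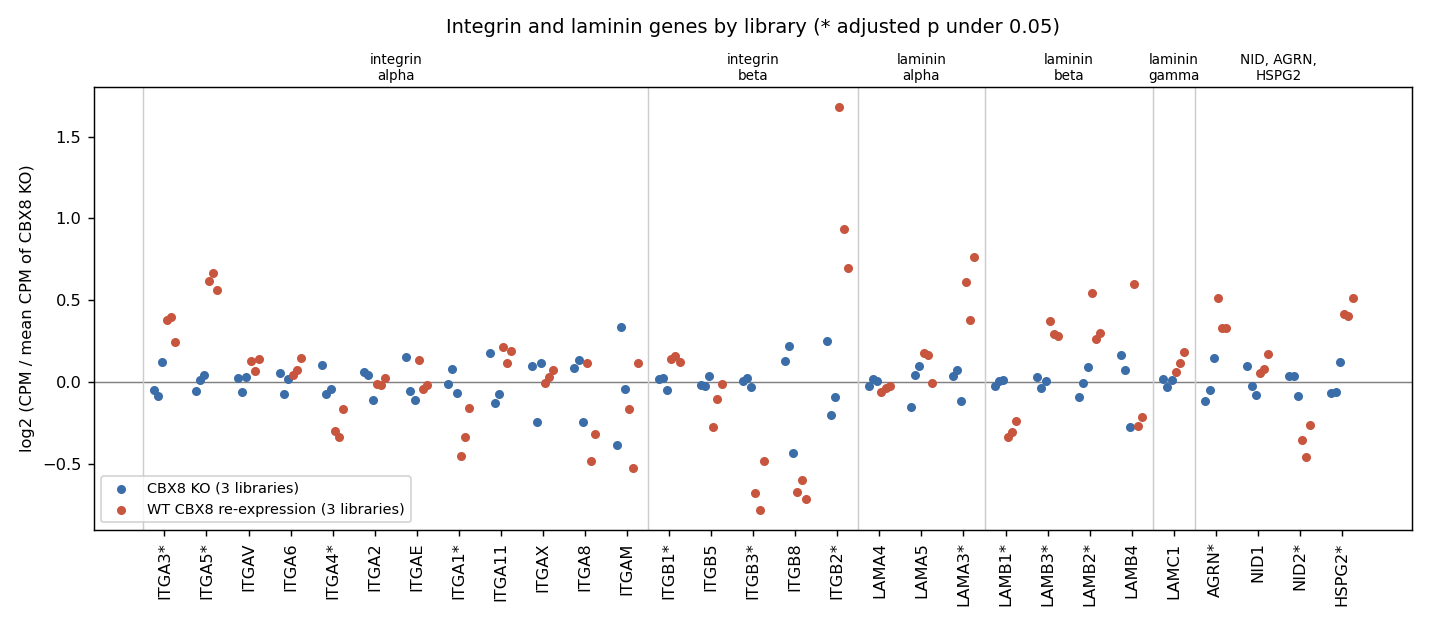
Each point is 1 library, drawn as log2 of its CPM (TMM-scaled) over the mean CPM of the 3 CBX8 KO libraries, for 29 tested genes grouped by family, with an asterisk where the adjusted p was under 0.05. The 3 re-expression libraries of ITGA5 sit above all 3 CBX8 KO libraries and those of ITGB3, LAMB1 and NID2 below them, while ITGB2 is the most scattered of the genes that rose.

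To compare levels between genes, CPM was divided by the length of the canonical transcript in kb. On this scale ITGB1, the beta subunit shared by most matrix-binding integrins, was the highest of all 42 genes, at 195 ± 5.22 CPM per kb (SD, n = 3) in CBX8 KO and 215 ± 2.79 upon re-expression. Next in CBX8 KO came LAMB1 (89.2 ± 1.24), LAMC1 (65.2 ± 1.09), ITGA3 (48.8 ± 3.84), LAMA4 (40.8 ± 0.618) and ITGA5 (36.9 ± 1.24). The levels of these 6 were separated by more than their SDs. ITGAV (23.6 ± 0.844) stood below them, and ITGA6 (18.2 ± 0.811), AGRN (17.4 ± 1.70) and NID1 (16.8 ± 1.07) followed, with neighbours in this order closer than their SDs. Upon re-expression ITGA5, at 56.5 ± 1.96, stood above LAMA4, at 39.6 ± 0.527, and LAMB1 (72.7 ± 2.50) and LAMC1 (70.9 ± 3.01) no longer differed beyond their SDs. The most abundant chain of each laminin position in both conditions was thus LAMA4, LAMB1 and LAMC1.

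**Figure D2:**
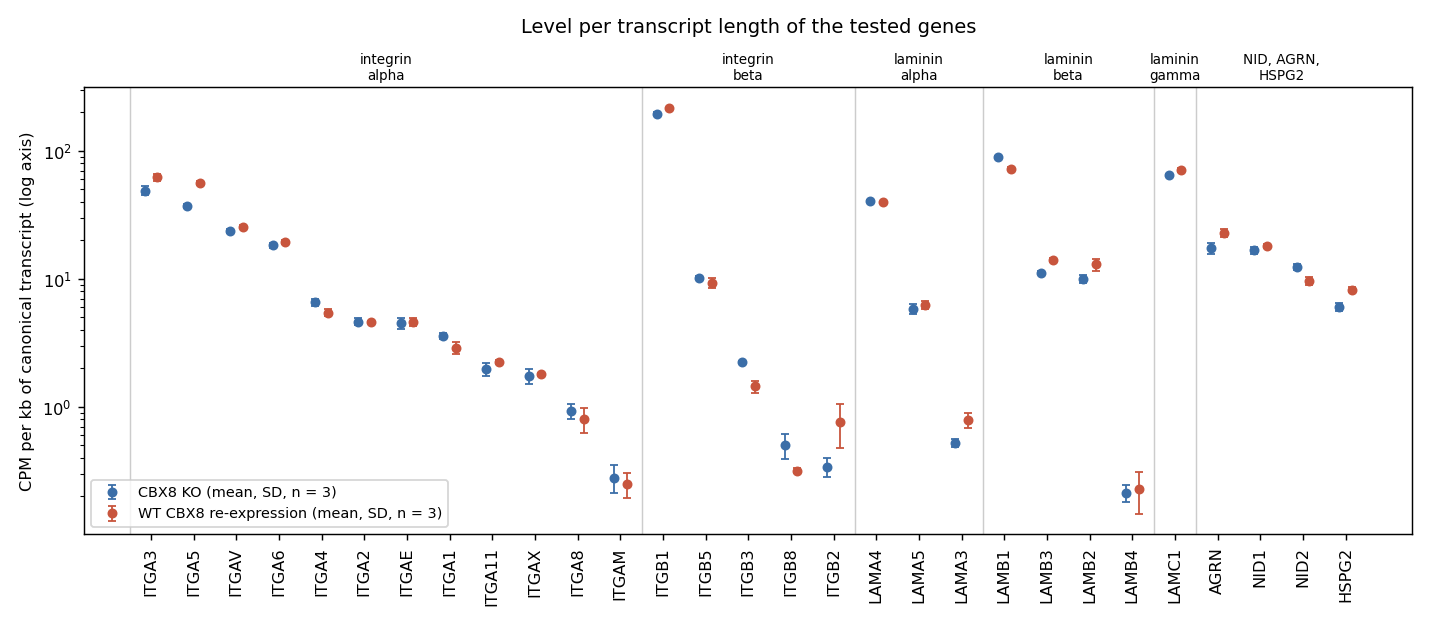
The mean level (CPM per kb of the canonical transcript, log axis) of each of 29 tested genes is shown for CBX8 KO and WT CBX8 re-expression, with bars for the SD of 3 libraries. ITGB1 stands highest at 195 and 215 CPM per kb, and ITGA3, ITGA5, LAMA4, LAMB1 and LAMC1 lie between 36.9 and 89.2 in CBX8 KO.

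RefSeq promoter windows (GRCh38.p14, 250 bases upstream of an annotated start) matched 29 of the 42 genes, and all 36 windows were identical to hg38. Those of ITGA5, LAMB1, LAMA3 and LAMB3 are shown as examples, ITGA5, LAMA3 and LAMB3 having risen and LAMB1 having fallen. Windows of other called genes, among them HSPG2, LAMB2 and NID2, are not shown. Each is written 5′ to 3′ on the strand of the gene, without bases that any annotated exon covers, and LAMB3 is given for the most downstream of its 3 annotated starts. Capitals mark the letters GGGCGG, the core of a GC box, and TGAGTCA, the site named for AP-1, each read on either strand.
ITGA5, chr12:54419267-54419516, minus strand: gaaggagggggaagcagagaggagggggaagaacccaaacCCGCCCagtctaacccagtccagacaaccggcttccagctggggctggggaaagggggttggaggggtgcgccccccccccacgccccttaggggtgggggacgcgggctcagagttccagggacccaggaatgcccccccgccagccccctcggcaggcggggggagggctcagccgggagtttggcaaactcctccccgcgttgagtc
LAMB1, chr7:108003214-108003411, minus strand: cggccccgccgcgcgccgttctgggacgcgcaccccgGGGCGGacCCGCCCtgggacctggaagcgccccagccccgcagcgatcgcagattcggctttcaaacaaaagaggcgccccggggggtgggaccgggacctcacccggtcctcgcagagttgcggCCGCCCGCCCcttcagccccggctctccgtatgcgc
LAMA3, chr18:23872770-23873019, plus strand: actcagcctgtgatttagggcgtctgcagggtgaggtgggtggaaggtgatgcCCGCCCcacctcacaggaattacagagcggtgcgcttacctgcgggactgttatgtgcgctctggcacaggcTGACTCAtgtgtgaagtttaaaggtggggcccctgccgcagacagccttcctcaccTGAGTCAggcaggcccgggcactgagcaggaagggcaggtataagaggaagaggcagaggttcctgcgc
LAMB3, chr1:209651395-209651624, minus strand: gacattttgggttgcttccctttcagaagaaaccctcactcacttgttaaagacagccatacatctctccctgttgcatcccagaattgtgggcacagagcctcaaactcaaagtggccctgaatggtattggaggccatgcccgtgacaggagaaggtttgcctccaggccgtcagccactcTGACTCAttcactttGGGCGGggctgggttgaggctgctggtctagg
The LAMA3 window precedes an internal start within the gene. TGAGTCA occurred 2 times in the LAMA3 window and 1 time in that LAMB3 window, and in no other window of these genes. Thus 2 of the 36 windows held it, too few to be set against the 4.20% of 35114 RefSeq promoters that do. The windows at the other LAMB3 starts lack it, and every window of these genes that holds it is among those shown. GGGCGG was in 20 of the 36 windows (55.6%), which come from 29 genes, and in 42.6% of all promoters. The windows that hold it include those of genes that rose and of genes that fell. A match of letters is a description and says nothing about binding.

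Among the alpha subunits, ITGA5, the partner of ITGB1 in the classical fibronectin receptor, gave the smallest adjusted p of the 42 genes. Its counts were 1195, 1330 and 1259 in CBX8 KO and 2043, 2175 and 1947 upon re-expression. Every re-expression library was above every CBX8 KO library. Its level rose from 157 ± 5.29 to 240 ± 8.34 CPM (SD, n = 3), a log2 fold change of 0.62 (SE 0.05, edgeR's adjusted p = 1.5e-09). ITGA5 spans 54395261 to 54419266 of chromosome 12 in hg38, minus strand.

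ITGA3, which pairs with ITGB1 to bind laminins, had 1831, 1894 and 2033 counts in CBX8 KO and 2644, 2759 and 2377 upon re-expression. The groups did not overlap, and the level rose from 239 ± 18.8 to 303 ± 17.5 CPM, a log2 fold change of 0.34 (SE 0.06, edgeR's adjusted p = 9.7e-05). The other laminin-binding subunit that was tested, ITGA6, stood at 106 ± 4.72 and 113 ± 4.29 CPM with overlapping libraries, and its log2 difference of 0.09 (95% interval -0.02 to 0.20, edgeR's adjusted p = 0.329) did not pass the test. ITGA7, the third of this class, had at most 6 counts. ITGAV, which binds RGD ligands such as vitronectin with several beta subunits, stood at 166 ± 5.94 and 180 ± 5.11 CPM. Its libraries did not overlap, but the log2 difference of 0.11 (95% interval 0.01 to 0.22, edgeR's adjusted p = 0.153) did not pass the test with TMM scaling.

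The alpha subunits that fell were ITGA1, a collagen receptor, and ITGA4, which binds VCAM1 and fibronectin. ITGA1 had 302, 342 and 287 counts in CBX8 KO and 239, 267 and 290 upon re-expression. Its raw counts overlapped, whereas its CPM did not, falling from 38.5 ± 1.98 to 31.0 ± 3.25, a log2 fold change of -0.31 (SE 0.09, edgeR's adjusted p = 0.0195). This call was lost without CBX8 KO replicate 2 (-0.27, edgeR's adjusted p = 0.100), WT CBX8 re-expression replicate 1 (-0.25, 0.0932) or replicate 2 (-0.30, 0.0612), with DESeq2 (0.077) and with library size scaling (0.0562), in a range from 0.0031 to 0.100 over the alternative fits. ITGA4 had 378, 355 and 337 counts in CBX8 KO and 307, 307 and 333 upon re-expression. All 3 re-expression libraries were lower, at 36.9 ± 2.40 against 44.3 ± 2.96 CPM, a log2 fold change of -0.26 (SE 0.08, edgeR's adjusted p = 0.0303). It was not called without CBX8 KO replicate 1 (-0.21, edgeR's adjusted p = 0.151), WT CBX8 re-expression replicate 1 (-0.25, 0.0767) or replicate 2 (-0.23, 0.126), nor by DESeq2 (0.118), nor with library size scaling (0.0894), with a range of 0.0147 to 0.151 over the alternative fits. The second tested collagen-binding subunit, ITGA2, stood at 36.3 ± 2.31 and 36.3 ± 0.640 CPM (log2 95% interval -0.17 to 0.17, edgeR's adjusted p = 0.991), and the third, ITGA11, had a log2 difference of 0.17 (edgeR's adjusted p = 0.308).

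By the ligands they are known for, 1 of 3 tested collagen-binding alpha subunits fell, 1 of 2 tested laminin-binding subunits rose, and 1 of 3 tested RGD-binding subunits rose, where 12.9% of all genes tested were called in either direction. Classes of 2 or 3 genes are too small to be set against that share. The third RGD-binding subunit was ITGA8, with a log2 difference of -0.21 (edgeR's adjusted p = 0.555). The leukocyte subunits ITGAE, ITGAM and ITGAX had log2 differences between -0.18 and 0.04, of which 0 passed edgeR's test, 0 had an unadjusted p under 0.05 and 0 passed DESeq2. Summed over all 18 alpha subunits, the level per length was 152 ± 4.92 CPM per kb in CBX8 KO and 187 ± 3.56 upon re-expression. ITGA5 made up 24.3% ± 0.939 of that sum in CBX8 KO and 30.3% ± 0.544 upon re-expression. The share of ITGA3 was 32.1% ± 1.55 and 33.2% ± 1.29, with overlapping libraries, so ITGA3 and ITGA5 together formed most of the alpha subunit RNA in both conditions.

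Among the beta subunits, ITGB1 held 93.5% ± 0.209 of the summed level per length in CBX8 KO and 94.6% ± 0.303 upon re-expression. Its counts were 5854, 6231 and 5515 in CBX8 KO and 6831, 7118 and 6655 upon re-expression, with every re-expression library higher. The rise from 728 ± 19.5 to 803 ± 10.4 CPM was small, a log2 fold change of 0.14 (SE 0.05, edgeR's adjusted p = 0.0497), and lay next to the threshold. Leaving out any 1 of the 6 libraries ended the call, with log2 fold changes between 0.12 and 0.15 and edgeR's adjusted p between 0.0709 and 0.156, within a range of 0.0032 to 0.156 over all alternative fits.

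ITGB3, the vitronectin receptor subunit that pairs with ITGAV, moved the other way. It had 106, 114 and 102 counts in CBX8 KO and 71, 68 and 80 upon re-expression, with no overlap. Its level fell from 13.3 ± 0.249 to 8.55 ± 0.895 CPM, a log2 fold change of -0.64 (SE 0.13, edgeR's adjusted p = 0.00105). Its share of the summed beta subunit level was 1.08% ± 0.00942 in CBX8 KO and 0.634% ± 0.0729 upon re-expression. ITGB3 spans 47253827 to 47313743 on the plus strand of chromosome 17, and 2266 of its 6829 exon bases are also exon bases of another gene on the same strand (ENSG00000259753), with which its counts could have been shared.

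ITGB8, the TGF-beta-activating partner of ITGAV, had 39, 44 and 26 counts in CBX8 KO and 24, 26 and 23 upon re-expression. Its log2 difference of -0.66 was about that of ITGB3 but with a wider 95% interval, -1.14 to -0.18, and it did not pass (edgeR's adjusted p = 0.0628). It passed without CBX8 KO replicate 3 (-0.83, edgeR's adjusted p = 0.0227) and with GC and length correction (-0.68, 0.0447), in a range from 0.0227 to 0.301. ITGB5, a further partner of ITGAV, stood at 45.3 ± 1.03 and 41.5 ± 3.74 CPM (log2 difference -0.12, 95% interval -0.29 to 0.04, edgeR's adjusted p = 0.347).

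ITGB2, the beta subunit of leukocyte integrins, was close to the limit of detection. It had 9, 7 and 7 counts in CBX8 KO and 26, 16 and 13 upon re-expression, and passed the count filter only through the re-expression libraries. The rise from 0.954 ± 0.160 to 2.14 ± 0.802 CPM gave a log2 fold change of 1.16 (SE 0.37, edgeR's adjusted p = 0.0381). The call was lost on leaving out any 1 library other than WT CBX8 re-expression replicate 3, with edgeR's adjusted p between 0.0584 and 0.255, and the log2 fold change was 0.82 without re-expression replicate 1. DESeq2 gave an adjusted p of 0.231, in a range of 0.0271 to 0.255 over the alternative fits. Of the leukocyte markers, PTPRC, CD3E and CD14 had between 0 and 6 counts in every library. LCP1, the leukocyte actin bundler also found in tumour cell lines, had 22, 29 and 32 counts in CBX8 KO and 112, 125 and 121 upon re-expression (log2 fold change 2.02, edgeR's adjusted p = 1.3e-09). Its part in the ITGB2 result was not tested.

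The laminin beta chains divided. LAMB1, the beta chain of the laminins most widely made in the embryo and by mesenchymal cells, had 3928, 4268 and 3974 counts in CBX8 KO and 3393, 3569 and 3582 upon re-expression. All re-expression libraries were lower. Its level fell from 504 ± 7.02 to 411 ± 14.1 CPM, a log2 fold change of -0.29 (SE 0.05, edgeR's adjusted p = 8.3e-05). LAMB1 spans 107923799 to 108003213 of chromosome 7, minus strand. Of its 18592 exon bases, 484 are shared with DLD and ENSG00000273055 on the opposite strand (DLD -0.15, edgeR's adjusted p = 0.0834).

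LAMB2, the beta chain of mature vascular, kidney and synaptic basement membranes, had 422, 476 and 474 counts in CBX8 KO and 706, 597 and 587 upon re-expression. The groups did not overlap, and the level rose from 56.8 ± 3.71 to 73.7 ± 8.09 CPM (log2 fold change 0.37, SE 0.07, edgeR's adjusted p = 7.9e-04). LAMB3, the beta chain of the epithelial adhesion laminin, had 363, 368 and 353 counts in CBX8 KO and 495, 482 and 459 upon re-expression. These groups were apart as well, at 44.9 ± 1.07 and 56.0 ± 1.93 CPM (log2 fold change 0.32, SE 0.07, edgeR's adjusted p = 0.00209). LAMB2 lies on chromosome 3 from 49121114 to 49133118 and LAMB3 on chromosome 1 from 209614870 to 209652425, both on the minus strand. The fourth beta chain, LAMB4, had between 8 and 16 counts and a log2 difference of 0.09 (edgeR's adjusted p = 0.916).

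As shares of the summed beta chain level per length, LAMB1 was 80.7%, 81.0% and 80.3% in the CBX8 KO libraries and 70.6%, 73.6% and 74.3% upon re-expression. The means were 80.7% ± 0.352 and 72.8% ± 1.98. LAMB2 went from 9.03% to 13.0% and LAMB3 from 10.1% to 14.0%, each without overlap between the conditions. The sum itself was 111 CPM per kb in CBX8 KO and 99.9 upon re-expression. These shares restate the 3 tested changes on a common scale and were given no test of their own.

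**Figure D3:**
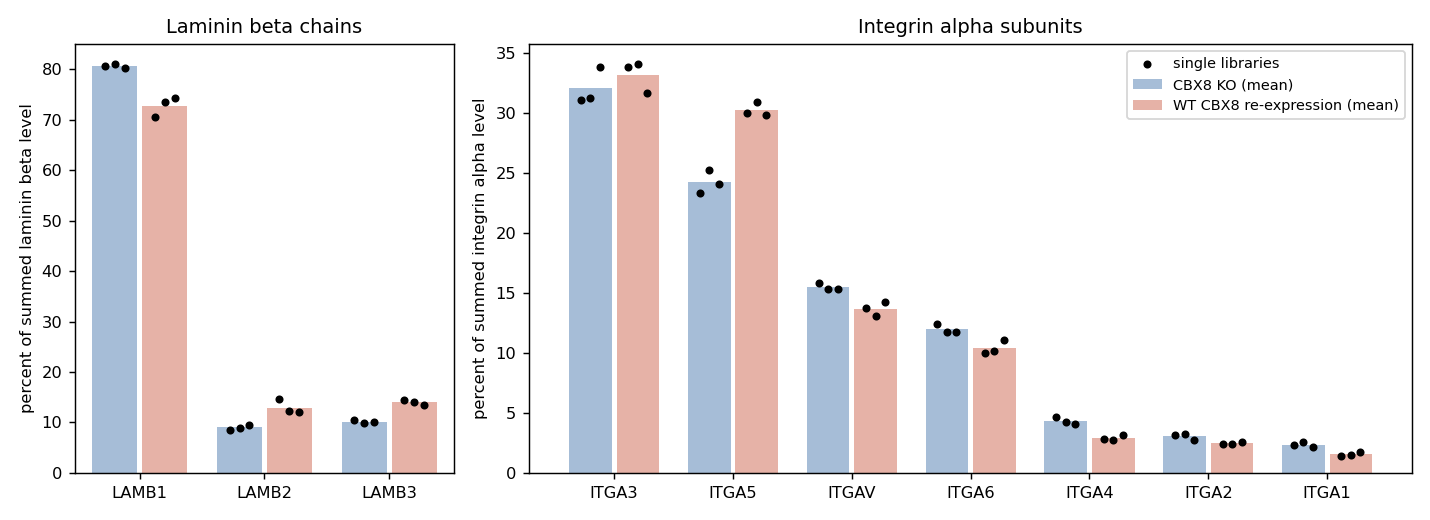
Bars are mean shares and points single libraries, in percent of the summed level per length of the laminin beta chains (left) and of the integrin alpha subunits (right), 3 libraries a condition. LAMB1 goes from 80.7% to 72.8% while LAMB2 and LAMB3 gain, and ITGA5 goes from 24.3% to 30.3%, whereas the ITGA3 libraries of the conditions overlap.

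Of the laminin alpha chains, LAMA3, the alpha chain that joins LAMB3 in the epithelial adhesion laminin, was called. Its counts were 45, 49 and 40 in CBX8 KO and 72, 63 and 79 upon re-expression, with no overlap. The level rose from 5.54 ± 0.371 to 8.35 ± 1.11 CPM (log2 fold change 0.59, SE 0.17, edgeR's adjusted p = 0.0168). The call was lost without CBX8 KO replicate 3 (0.53, edgeR's adjusted p = 0.0638) or WT CBX8 re-expression replicate 3 (0.49, 0.0930) and with DESeq2 (0.161), in a range of 0.00884 to 0.161. LAMA3 spans 23689453 to 23956222 on the plus strand of chromosome 18.

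LAMA4, the alpha chain of mesenchymal and endothelial laminins, made up 86.4% of the summed alpha chain level in CBX8 KO and 84.6% upon re-expression. It stood at 295 ± 4.47 and 287 ± 3.81 CPM, with a log2 difference of -0.04 (95% interval -0.14 to 0.05, edgeR's adjusted p = 0.642). LAMA5, a broadly expressed alpha chain, stood at 66.3 ± 5.97 and 71.8 ± 5.11 CPM (log2 difference 0.12, 95% interval -0.03 to 0.26, edgeR's adjusted p = 0.308). LAMC1, the common gamma chain, stood at 517 ± 8.67 and 562 ± 23.9 CPM. Its libraries were apart, and its log2 difference of 0.12 (95% interval 0.02 to 0.22, edgeR's adjusted p = 0.105) did not pass the test with TMM scaling.

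Of the linkers, both proteoglycans rose. AGRN had 935, 1041 and 1108 counts in CBX8 KO and 1556, 1406 and 1349 upon re-expression. With no overlap, its level rose from 128 ± 12.4 to 168 ± 12.9 CPM (log2 fold change 0.40, SE 0.06, edgeR's adjusted p = 7.4e-05). HSPG2 had 652, 697 and 734 counts in CBX8 KO and 981, 999 and 1036 upon re-expression, again with no overlap. Its level rose from 86.3 ± 6.58 to 118 ± 5.01 CPM (log2 fold change 0.45, SE 0.06, edgeR's adjusted p = 5.5e-06). Correction of the libraries for GC and length brought both log2 fold changes to 0.23, with both still called. These are GC-rich transcripts, at 67.6% for AGRN and 64.5% for HSPG2.

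HSPG2 shares 2122 of its 18118 exon bases with LDLRAD2 on the opposite strand. LDLRAD2 had 86, 110 and 80 counts in CBX8 KO and 140, 152 and 127 upon re-expression (log2 fold change 0.52, edgeR's adjusted p = 0.00451), and without a stated strand setting reads of the shared bases cannot be told apart. AGRN spans 1020120 to 1056118 on the plus strand and HSPG2 21822244 to 21937310 on the minus strand of chromosome 1.

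The nidogens differed in their result. NID2 had 491, 521 and 445 counts in CBX8 KO and 402, 384 and 423 upon re-expression. All re-expression libraries were lower, and the level fell from 60.3 ± 2.88 to 47.2 ± 3.25 CPM (log2 fold change -0.36, SE 0.07, edgeR's adjusted p = 9.4e-04). NID1 stood at 97.2 ± 6.20 and 104 ± 4.44 CPM with overlapping libraries (log2 difference 0.10, 95% interval -0.02 to 0.22, edgeR's adjusted p = 0.276). NID2 spans 52004809 to 52069059 of chromosome 14, minus strand, and shares 1909 of 6217 exon bases with RTRAF on the opposite strand, which had a log2 difference of -0.13 (edgeR's adjusted p = 0.121). In the same way, 2813 of 10654 exon bases of ITGA4 lie opposite CERKL (-0.11, edgeR's adjusted p = 0.660), and 1070 of 18545 exon bases of ITGA1 are shared with PELO and RPL17P21 on the same strand (PELO -0.03, edgeR's adjusted p = 0.842). On the opposite strand, 1494 exon bases of ITGA1 are shared with ITGA2-AS1 and PELO-AS1. AGRN shares 402 of 10761 exon bases with ENSG00000242590 on the same strand, and LAMB3 6 of 4647 with MIR4260. On the opposite strand, ITGB1 shares 401 of 14561 with ITGB1-DT, and ITGA5 48 of 7383 with GPR84-AS1.

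The other 12 genes were too low to test. The integrin subunits ITGA10 and ITGB7 reached 10 and 9 counts, ITGA7, ITGAD and ITGB4 reached 6, ITGA9, ITGAL and ITGB6 reached 3, and ITGA2B reached 2. The laminin chains LAMA2, LAMA1 and LAMC3 reached 10, 5 and 1 counts. LAMA1 (0, 1 and 1 counts in CBX8 KO, 5, 5 and 2 upon re-expression) and ITGB4 (2, 0 and 2 against 4, 3 and 6) had groups that did not overlap. In the fits without a count filter, edgeR and DESeq2 called 0 of the 12 (1, LAMA1, with an unadjusted p under 0.05 by edgeR and 0 by DESeq2). A gene to which DESeq2 gave no adjusted p was counted as not called. Counts this low cannot show that a gene did not change. The platelet subunit ITGA2B, the partner of ITGB3 on platelets, and the hemidesmosome subunit ITGB4 were thus near 0 in these cells.

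Of the 14 called genes, 9 kept their call in all 16 alternative fits, 6 higher (AGRN, HSPG2, ITGA3, ITGA5, LAMB2 and LAMB3) and 3 lower (ITGB3, LAMB1 and NID2). The transcripts of the genes that rose had 50.7% to 67.6% GC apart from ITGB1 at 39.5%, and those of the genes that fell 38.7% to 52.3%.

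**Figure D4:**
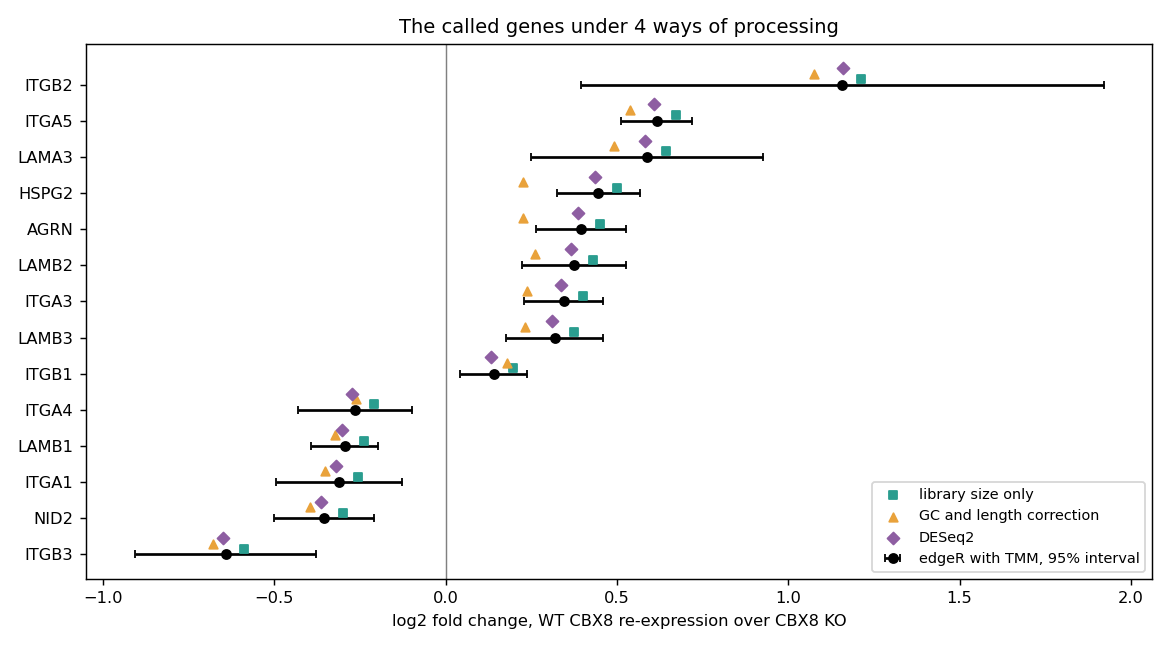
Log2 fold changes of the 14 called genes (WT CBX8 re-expression over CBX8 KO), with black points and 95% intervals for edgeR with TMM scaling and coloured marks for library size scaling, GC and length correction and DESeq2. All 14 keep their sign, and the GC and length correction takes AGRN and HSPG2 to 0.23, below their intervals.

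Related genes were counted in 5 lists. Their median CPM in CBX8 KO lay between 49.8 and 142, against 23.1 for all genes tested, and the shares below were not matched for level. Of 34 cytoplasmic adaptors, kinases and other regulators of integrins, 28 were tested, of which 6 rose and 3 fell. This was 32.1% against the 12.9% of all genes tested, with a median log2 fold change of 0.07. Without CBX8 KO replicate 2 or WT CBX8 re-expression replicate 2, 1 was lower. The largest changes were those of the scaffold NEDD9 (-0.79, edgeR's adjusted p = 0.0417), which had 29 to 32 counts in CBX8 KO and 14 to 25 upon re-expression, and the integrin activators and adaptors TLN2 (0.41, 0.00214), TGFB1I1 (0.33, 3.8e-04) and TLN1 (0.27, 3.7e-04). All 13 membrane partners that associate laterally with integrins were tested, and 5 rose and 2 fell (53.8%, against 12.9% of all genes, median 0.09). The number higher was 2 without CBX8 KO replicate 1 or 2 or WT CBX8 re-expression replicate 2, and 3 without re-expression replicate 1 or 3, and the number lower was 1 without CBX8 KO replicate 2. They were led by the endocytic receptor LRP1 (0.69, edgeR's adjusted p = 4e-07), the tetraspanins CD9 (0.40, 5.2e-04) and CD82 (0.28, 0.00996) and the urokinase receptor PLAUR (0.29, 0.0453). The 2 that fell were CD47 (-0.28, edgeR's adjusted p = 7.3e-04) and SLC3A2 (-0.20, 0.0072).

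The laminin receptor list held 20 genes, for other laminin receptors, hemidesmosome proteins (PLEC, DST and COL17A1) and enzymes that glycosylate dystroglycan. Of these, 17 were tested, 2 rose and 1 fell (17.6%, near the 12.9% of all genes, median 0.05). These were the laminin receptor BCAM (0.49, edgeR's adjusted p = 2.8e-05), DST (0.33, 0.00399) and the glypican GPC1 (-0.26, 6.3e-04). Counts by gene do not show which transcript of DST rose. Of 24 other basement membrane proteins, 9 were tested, 2 rose and 1 fell (33.3% against 12.9%, median 0.12). PXDN, the peroxidase that crosslinks type IV collagen, went from 120 ± 3.05 to 211 ± 6.16 CPM (0.82, edgeR's adjusted p = 9e-12), COL4A1 rose by less (0.25, 0.00241), and FRAS1, with 21 to 23 counts in CBX8 KO and 7 to 11 upon re-expression, fell (-1.31, 0.00552). FRAS1 passed the count filter through the CBX8 KO libraries, in which it was higher, and DESeq2 did not call it. Of 32 other integrin ligands, 25 were tested, 8 rose and 2 fell (40.0% against 12.9%, median 0.07), with 1 lower without CBX8 KO replicate 1 or 2 or WT CBX8 re-expression replicate 2. TNC, the glioma matrix protein tenascin-C, rose most, from 63.4 ± 4.40 to 167 ± 10.1 CPM (1.39, edgeR's adjusted p = 7.2e-15), followed by COL1A1 (0.98, 3e-06), FBN1 (0.59, 1.6e-07) and CTGF (0.59, 2.2e-05). The 2 ligands that fell were COL6A1 (-0.22, edgeR's adjusted p = 0.00191) and EDIL3 (-0.18, 0.0169).

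**Figure D5:**
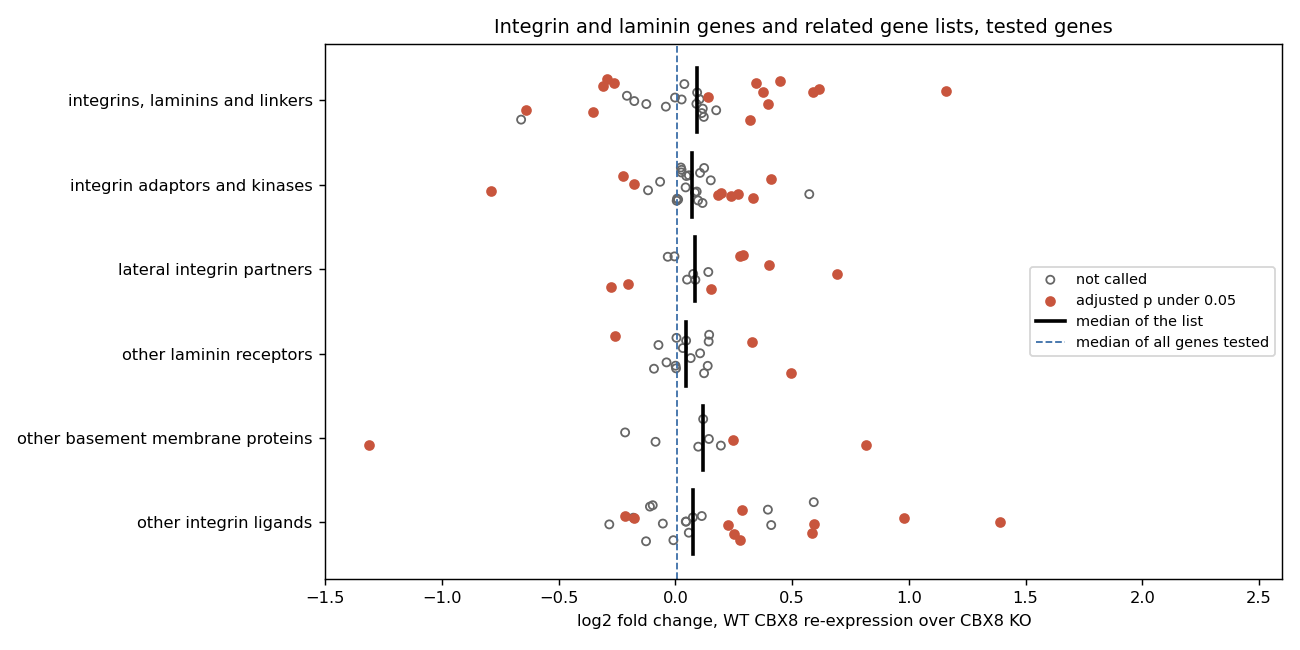
Each circle is 1 tested gene at its log2 fold change (WT CBX8 re-expression over CBX8 KO), filled where the adjusted p was under 0.05, for the integrin and laminin genes and the 5 related lists, with a bar at each list's median and a dashed line at the median of all 14461 genes. The list medians lie between 0.05 and 0.12, with FRAS1 at -1.31 and TNC at 1.39 at the ends of the plotted values.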

How the data were processed

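RNA-seq of 6 T98G CBX8 KO libraries was analysed, 3 with the empty vector and 3 with WT CBX8 re-expression, grouped by their titles. The deposited values are the authors' raw counts for 57133 symbols, made from poly(A) RNA sequenced as paired-end reads, trimmed with Trimmomatic and aligned to hg38 with HISAT2, as the paper's methods and the submitters' processing notes state. The counting program and strand setting are not given in the sources used here. The file holds no comparison columns. Counts were compared in R 4.3.3 with edgeR 4.0.16 (filterByExpr, TMM, estimateDisp, glmQLFit and glmQLFTest, condition as the only term) over 14461 genes that reached a CPM of 1.21 in 3 libraries. P-values were two-sided and adjusted by the Benjamini-Hochberg method, with FDR under 0.05 as the threshold. SEs are the absolute log2 fold change over the square root of F, and 95% intervals use the same degrees of freedom. The fit was run on counts simulated from its own means and dispersions, with changes placed only in genes with more counts. That run cannot show how the test behaves on these libraries or on genes with few counts. The biological coefficient of variation was 4.70%.

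The members and lists were chosen with earlier results of these data known. Every integrin, laminin and linker gene was named, other than 1 whose result is not reported here, with full values for those called and for the 8 highest of those not called. In each list the 4 largest called changes were named. Other genes were named after their values were seen. Transcript lengths, GC content and overlaps came from GENCODE 44, promoters from RefSeq, and no gene of the 42 had an alternate copy (minimap2 2.31, at least 95% of bases). Alternative settings were scaling by RLE, by upper quartile or by library size only, 2 other filters, DESeq2 1.42.0, legacy set to FALSE, FDR under 0.01, GC and length correction, the replicate block, and each library left out. Nothing states that the libraries come from separate cultures, so p-values measure the spread between these libraries, which may be technical. Chi-square per degree of freedom between libraries of one condition was 1.96 to 2.90, so all 6 were kept as separate.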

Additional observations from a re-analysis of the deposited data

How the results depend on the processing

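Of 464 log2 fold changes of 29 tested genes over 16 alternatives, 407 kept direction and side of the threshold, 36 lost their call, 4 gained one and 17 turned direction, and no call turned direction. The cause of these changes was not tested. CBX8 stayed between 8.15 and 8.27. The 42 genes fell and rose in 3 and 11 cases with library size scaling, which moved the median of all genes by 0.0553 and gave 592 lower and 1400 higher genes in all, in 3 and 7 with DESeq2 (667 and 421 in all), in 3 and 6 at FDR under 0.01 (569 and 489), in 6 and 9 with GC and length correction (1352 and 819), and in 3 to 6 and 6 to 7 with a library left out.

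Unpassed values that turned direction were, with upper quartile scaling, ITGA2 (0.011), with library size scaling ITGA2 (0.053) and LAMA4 (0.014), and with GC and length correction ITGAE (-0.021), ITGAX (-0.033) and LAMA5 (-0.089). With a library left out, ITGA2 lay from -0.054 to 0.026, ITGAE from -0.032 to 0.11, ITGAM from -0.34 to 0.031, ITGAX from -0.073 to 0.10 and LAMB4 from -0.24 to 0.25.

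In the lists, library size scaling left 1 adaptor, 1 lateral partner and 1 ligand lower and 4 of the laminin receptor list higher. Lateral partners higher numbered 3 with no filter, with DESeq2, at FDR under 0.01 and with the replicate block. DESeq2 called 1 of the laminin receptor list higher and 0 basement membrane proteins lower (2 at an unadjusted p under 0.05, 1 by edgeR). At FDR under 0.01, 1 adaptor and 1 ligand were lower. GC and length correction gave 2 of the laminin receptor list and 5 ligands lower. With a library left out, adaptors lower numbered 1 to 2, lateral partners lower 1 to 2 and higher 2 to 4, and ligands lower 1 to 2.

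The replicate numbers did not pair the libraries (correlations of deviations -0.11, -0.06 and -0.06 over 13491 genes, with 0 of 6 libraries closest to their own number). With the replicate block 4 genes were lower and 7 higher, the calls of ITGA4, ITGB1 and ITGB2 being lost (edgeR's adjusted p = 0.0506, 0.110 and 0.0503). Depth leaves the genes with few counts, such as ITGB2, ITGAM and LAMB4, with SEs of 0.37 to 0.38 on the log2 scale.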

Other observations

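Of the RNAs that carry an integrin or laminin symbol without encoding a subunit, all chosen after their values were seen, ITGBL1, a secreted protein with integrin beta-like repeats, had 533, 574 and 563 counts in CBX8 KO and 519, 530 and 530 upon re-expression. Its CPM libraries did not overlap (log2 difference -0.17, edgeR's adjusted p = 0.0705). ITGB3BP, a centromere protein named for its binding to ITGB3, had a log2 difference of -0.05 (edgeR's adjusted p = 0.752), unlike ITGB3 itself at -0.64, and the difference between these values was not tested. ITGB2-AS1, the RNA opposite ITGB2, had 4, 7 and 6 counts in CBX8 KO and 8, 13 and 12 upon re-expression, too few to be tested, and shares 303 exon bases with ITGB2, so reads of that stretch cannot be told apart. The antisense RNAs LAMC1-AS1 and ITGA6-AS1 had log2 differences of -0.28 and -0.32 on at most 15 and 18 counts (edgeR's adjusted p = 0.730 and 0.614).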
